A study of Mus musculus with 61 samples.

Results

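Muscle transcripts of PWK mice were compared with those of B6 mice, gene by gene. The comparison rests on 15 of the 61 libraries of the series, 7 of PWK and 8 of B6, which were chosen by the strain name that opens each library's title. PWK is a wild-derived inbred strain of Mus musculus musculus origin. B6 is the short name of C57BL/6, the laboratory strain whose genome is the mouse reference assembly. The labels give the tissue as skeletal muscle, without naming a muscle, and both strains carried the same diet label, a high-fat, high-sugar diet of 45 percent fat. They give no sex, age, batch or B6 substrain, and nothing in them says that each library is another animal. The p-values therefore reflect only how much the libraries vary. Each strain held libraries of both sexes, as described below, so its libraries did not all come from the same animal. How many animals they came from is not given, and part of the variation may be technical. The other 46 libraries come from 6 further strains (AJ, 129, NOD, NZO, Cast and WSB) and were filtered, scaled and fitted together with the 15, so they bear on which genes were tested and on the estimate of spread. With the 15 libraries alone, 15015 genes were tested and 5947 called, against 16682 and 6258 with all libraries. The 8 strains are those from which Diversity Outbred mice were bred, and the comparison asks how far muscle transcript levels differ between a wild-derived founder and the reference strain on this diet.

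Skeletal muscle burns glucose and fatty acids in mitochondria, stores glycogen, and contracts through myosins that differ between slow and fast fibres. Insulin moves glucose transporters to the fibre surface through the kinase AKT and its targets TBC1D1 and TBC1D4, while AMP-activated kinase senses low energy. Muscle pieces also hold blood vessels, connective tissue, fat, nerve and resident macrophages, and interferons induce antiviral genes in most of these cells.

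Levels are in CPM, the count of a gene scaled to a common library size after TMM adjustment, and 3 CPM values given for a strain are its lowest, median and highest library (n = 7 for PWK, n = 8 for B6). Differences are log2 values of PWK minus B6 with their standard error (SE), so a positive value means a higher level in PWK. Adjusted p-values come from edgeR's quasi-likelihood F test with Benjamini-Hochberg adjustment over all 16682 genes tested, with a threshold of 0.05. CPM is not scaled by gene length, so levels are compared between strains and not between genes. In bulk tissue, fewer cells of a type and less RNA per cell cannot be told apart.

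The PWK libraries held 17057111 to 46775390 counts and the B6 libraries 19233666 to 46148871 counts. B6 replicate 5 stood apart: the ribosomal RNA gene Rn18s-rs5 took 46.3% of its counts, against 5.67% to 8.40% in the PWK libraries and 4.14% to 9.11% in the other B6 libraries. Leading counts are therefore also given without that library, and list counts given without that remark moved by at most 1 when it was left out. Xist, which is expressed in females, exceeded the Y-linked Ddx3y in 4 PWK and 4 B6 libraries, so both strains hold both sexes and the spread within a strain can include sex. Over the 15 libraries the first principal component carried 36.3% of the variance and placed the PWK libraries, at -65.49 to -46.97, apart from the B6 libraries, at 37.36 to 65.88. The summed CPM of 10 skeletal muscle fibre genes was 119600.0 to 176600.0 in PWK and 142900.0 to 235200.0 in B6, and 1 of the 10 was higher and 3 were lower in PWK (40.0% called, against 37.5% of all tested genes).

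Transcript differences between the strains were widespread and mostly small. Of 16682 genes, 6258 (37.5%) passed the threshold, 2958 (17.7%) higher and 3300 (19.8%) lower in PWK. Without B6 replicate 5 the count was 5992 of 16667 (36.0%). By size, 2576 of the called genes lay under 0.5 log2 units, 1764 between 0.5 and 1, 1182 between 1 and 2, and 736 at 2 or more, with a median size of 0.617 log2 units. At a size of at least 1 log2 unit, 1918 genes (11.5%) were called, 787 (4.72%) higher and 1131 (6.78%) lower in PWK. That count was 965 with a stricter count filter and 438 by limma on the variance-stabilised values. All PWK libraries lay above all B6 libraries for 1215 genes (7.28%) and below all of them for 1311 (7.86%). The median difference over all tested genes was -0.00.

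**Figure D1:**
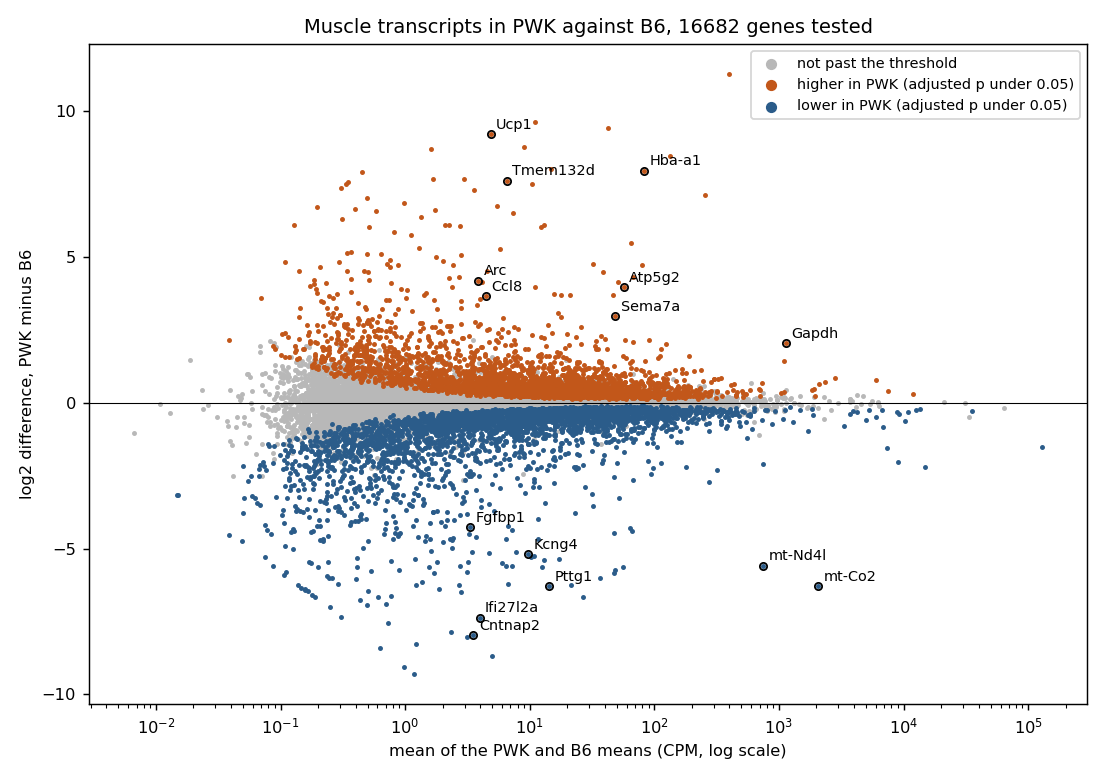
Each point is 1 of 16682 tested genes, with the mean of its PWK and B6 means in CPM on a log axis and its log2 difference, PWK minus B6, on the vertical axis. Orange points (2958 genes) are higher and blue points (3300 genes) lower in PWK at an adjusted p under 0.05, grey points did not pass, and a few genes described in the text are labelled.

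The strain means of the other 6 strains place each called gene. For 2625 of the called genes (41.9%) the PWK mean lay outside the range of the 6 other strain means while the B6 mean lay inside it. The opposite held for 974 called genes (15.6%), both means lay outside for 676 (10.8%) and both inside for 1983 (31.7%). Among the 10424 genes that were not called, PWK alone lay outside for 13.1% and B6 alone for 8.998%. These shares describe positions among strain means and carry no test.

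The 12 highest genes in PWK that have no near-identical copy and overlap no other gene include a brown fat gene, a chemokine, a semaphorin, a glutathione transferase and a DNA polymerase. Sema7a (chr9:57940113-57962864), a membrane-anchored semaphorin of axon growth and immune cells, had 58.5, 81.7 and 111 CPM in PWK, against 9.09, 10.7 and 13.3 CPM in B6 (log2 difference 2.96 ± 0.19, adjusted p = 2.27e-19). The lowest PWK library was above the highest B6 library, and the other 6 strains averaged 12.02 to 19.4 CPM, all below PWK. Arc (chr15:74669083-74672570), an activity-induced gene best known from neurons, had 3.52, 7.27 and 13.7 CPM in PWK, against 0.205, 0.366 and 0.791 CPM in B6 (log2 difference 4.17 ± 0.35, adjusted p = 5.51e-15). Frzb (chr2:80411970-80447625), a secreted inhibitor of Wnt signalling, had 20.4, 24.2 and 35.7 CPM in PWK, against 3.899, 4.69 and 6.26 CPM in B6 (log2 difference 2.38 ± 0.23, adjusted p = 8.39e-13). Every PWK library exceeded every B6 library for Arc and Frzb as well. The other 6 strains averaged 0.527 to 3.07 CPM of Arc and 5.66 to 12.01 CPM of Frzb. Osbpl3 (chr6:50293330-50456201), an oxysterol-binding protein, had 19.9, 23.2 and 29.2 CPM in PWK, against 2.89, 3.74 and 4.87 CPM in B6 (log2 difference 2.66 ± 0.18, adjusted p = 5.90e-19). Polq (chr16:37011786-37095417), a DNA polymerase of break repair, had 5.92, 6.69 and 12.3 CPM in PWK, against 1.02, 1.23 and 2.05 CPM in B6 (log2 difference 2.49 ± 0.25, adjusted p = 3.41e-12). Nlrp10 (chr7:108921852-108930178), a NOD-like receptor family member, had 6.67, 7.54 and 10.4 CPM in PWK, against 0.959, 1.36 and 1.97 CPM in B6 (log2 difference 2.52 ± 0.23, adjusted p = 5.25e-14). The B6 range stayed below the PWK range for these 3 genes. Means of the other 6 strains were 4.93 to 37.5 CPM of Osbpl3, highest in AJ, 0.701 to 2.10 CPM of Polq and 0.703 to 4.81 CPM of Nlrp10.

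The next 3 genes of the group also separate the strains, and Ccl8 and Orai2 do not. Gstm7 (chr3:107926334-107931817), a mu-class glutathione transferase, had 9.98, 13.1 and 17.2 CPM in PWK, against 0.819, 2.31 and 3.01 CPM in B6 (log2 difference 2.53 ± 0.27, adjusted p = 1.22e-11). Rbp7 (chr4:149449687-149454978), a cellular retinol-binding protein, had 7.41, 9.28 and 13.6 CPM in PWK, against 1.24, 1.66 and 2.71 CPM in B6 (log2 difference 2.52 ± 0.26, adjusted p = 3.41e-12). Frem2 (chr3:53513938-53657355), a basement membrane protein, had 12.6, 17.5 and 21.1 CPM in PWK, against 1.38, 3.42 and 7.85 CPM in B6 (log2 difference 2.32 ± 0.29, adjusted p = 2.62e-09). No library of PWK fell within the B6 range for these 3. Other strains were also high: NZO and Cast averaged 11.75 and 14.2 CPM of Gstm7, and 129, NOD, NZO and Cast 11.3 to 13.3 CPM of Rbp7. WSB averaged 13.4 CPM of Frem2. Ccl8 (chr11:82115185-82116799), a chemokine that attracts monocytes and other leukocytes, had 1.84, 6.75 and 18.7 CPM in PWK, against 0.149, 0.256 and 2.83 CPM in B6 (log2 difference 3.64 ± 0.61, adjusted p = 2.02e-06). In PWK, 6 of 7 libraries exceeded all B6 libraries, and without B6 replicate 1, the highest B6 library, the Ccl8 difference was 4.63. Orai2 (chr5:136147459-136170713), a pore subunit of store-operated calcium entry, had 6.74, 8.53 and 29.1 CPM in PWK, against 0.4703, 1.22 and 7.15 CPM in B6 (log2 difference 2.43 ± 0.40, adjusted p = 1.10e-06), with the PWK maximum in replicate 1 and the B6 maximum also in replicate 1. Without B6 replicate 1 the Orai2 difference was 3.06. Ucp1, the remaining gene of the 12, is described below with the genes close to silent.

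The 12 lowest genes in PWK under the same conditions hold several that were nearly absent from PWK muscle. Pttg1 (chr11:43420250-43426251), which encodes securin, a regulator of chromosome separation, had 0.112, 0.272 and 0.714 CPM in PWK, against 23.8, 28.3 and 31.3 CPM in B6 (log2 difference -6.29 ± 0.27, adjusted p = 2.57e-27). The other 6 strains averaged 0.666 to 0.962 CPM, so that B6 lay far above all of them and PWK below them. Kcng4 (chr8:119623854-119635680), a modifying subunit of voltage-gated potassium channels, had 0.0247, 0.323 and 1.45 CPM in PWK, against 12.6, 19.2 and 25.5 CPM in B6 (log2 difference -5.19 ± 0.46, adjusted p = 3.18e-14). Fgfbp1 (chr5:43978858-43981779), a carrier of fibroblast growth factors, had 0, 0.132 and 0.905 CPM in PWK, against 3.28, 6.11 and 9.78 CPM in B6 (log2 difference -4.28 ± 0.80, adjusted p = 1.54e-05), and without PWK replicate 3 its difference was -4.87. All B6 libraries were above all PWK libraries for these 3 genes. Kcng4 was also low in Cast and WSB, at means of 1.765 and 1.535 CPM. Fgfbp1 averaged 0.0115, 0.2675 and 0.266 CPM in NZO, Cast and WSB. Slc47a1 (chr11:61343401-61378345), an exporter of organic cations, had 0.586, 1.68 and 3.63 CPM in PWK, against 14.4, 16.3 and 19.2 CPM in B6 (log2 difference -3.11 ± 0.22, adjusted p = 7.37e-18). Otub2 (chr12:103388682-103406350), a deubiquitinating enzyme, had 1.78, 2.78 and 3.81 CPM in PWK, against 15.1, 20.9 and 28.7 CPM in B6 (log2 difference -2.90 ± 0.21, adjusted p = 1.46e-17). Firre (chrX:50555744-50635321), an X-linked noncoding RNA, had 1.98, 2.64 and 3.097 CPM in PWK, against 16.6, 18.3 and 22.7 CPM in B6 (log2 difference -2.89 ± 0.10, adjusted p = 5.75e-31). The 3 ranges again did not overlap between the strains. Means of the other 6 strains were 9.504 to 17.3 CPM of Slc47a1, 2.54 to 19.3 CPM of Otub2 and 3.82 to 22.3 CPM of Firre, the last 2 lowest in Cast.

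Gdap1 (chr1:17145362-17164271), a protein of the mitochondrial outer membrane, had 1.798, 2.17 and 5.96 CPM in PWK, against 9.35, 18.5 and 26.1 CPM in B6 (log2 difference -2.71 ± 0.39, adjusted p = 5.30e-08). Asb15 (chr6:24528144-24573164), a muscle-enriched ankyrin repeat protein of ubiquitin ligase complexes, had 12.2, 17.96 and 23.99 CPM in PWK, against 90.6, 115 and 144 CPM in B6 (log2 difference -2.66 ± 0.23, adjusted p = 9.71e-15). Zfp945 (chr17:22846697-22867134), a zinc finger gene, had 0.583, 1.08 and 1.53 CPM in PWK, against 4.496, 5.93 and 6.93 CPM in B6 (log2 difference -2.43 ± 0.15, adjusted p = 3.14e-20). None of the 3 overlapped between the strains. Means of the other 6 strains were 7.14 to 18.98 CPM of Gdap1, 24.6 to 109.5 CPM of Asb15 and 2.61 to 9.41 CPM of Zfp945. The immunoglobulin constant genes Ighg2c and Ighg2b had their highest level by far in B6 replicate 1. Ighg2c (chr12:113285325-113288932) had 0, 0.112 and 0.429 CPM in PWK, against 0.173, 0.461 and 48.1 CPM in B6, and its difference of -5.11 ± 1.26 (adjusted p = 0.000852) became -2.04, adjusted p = 0.133 without that library. Ighg2b (chr12:113302965-113307933) had 0, 0.0908 and 1.196 CPM in PWK, against 0, 0.111 and 47.7 CPM in B6, and its difference of -4.51 ± 1.46 (adjusted p = 0.0113) became -0.56, adjusted p = 0.805 without that library, and -5.58 without PWK replicate 9. B6 replicate 1 was also the library with the highest sum of 11 lymphocyte markers (176 CPM, against a B6 median of 5.63 CPM), whose part in these differences was not tested.

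**Figure D2:**
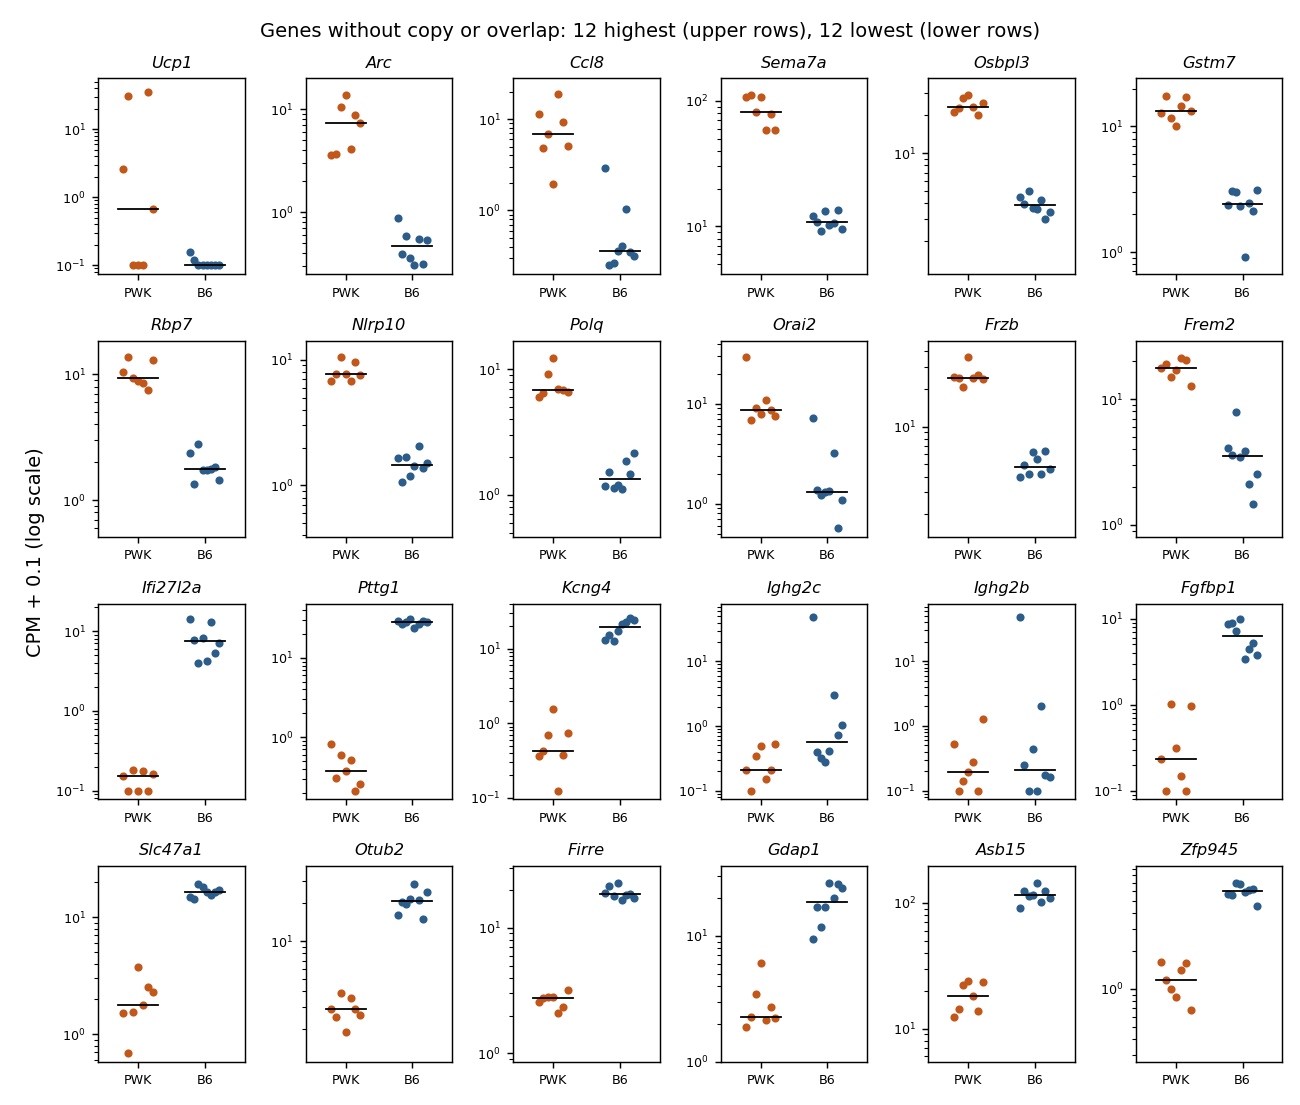
Each panel shows 1 gene, each point 1 library (7 PWK, 8 B6) and each bar the median of a strain, in CPM plus 0.1 on a log axis. The upper 2 rows hold the 12 highest and the lower 2 rows the 12 lowest genes by log2 difference that have no near-identical copy and no overlapping gene; Ucp1, Ccl8, Orai2, Ighg2c and Ighg2b are the panels in which the strains overlap.

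A set of 10 genes was close to silent in 1 strain, with every library under 0.2 CPM, and averaged at least 5 CPM in the other, and 9 of them are given here. The ratios below are scaled by each strain's summed library size and carry exact 95% intervals that cover counting error only. Cntnap2 (chr6:45059357-47304213), a neurexin family cell adhesion protein, had 6 counts in PWK and 1816 in B6, a ratio of 310.1 (142 to 846) of B6 over PWK. Ifi27l2a (chr12:103442167-103443680), an interferon-induced gene, had 11 counts in PWK and 2059 in B6, a ratio of 192 (107 to 385). Gbp6 under the ID ENSMUSG00000079362 (chr5:105214907-105293695), a guanylate-binding protein, had 14 counts in PWK and 1121 in B6, a ratio of 82.0 (48.7 to 151). The predicted genes Gm14680 (5 in PWK and 2316 in B6) and Gm44386 (5 in PWK and 1510 in B6) complete the group. Cntnap2 overlaps other genes and Gm14680 and this Gbp6 have near-identical copies, so that their reads may be shared.

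In the opposite direction, Tmem132d (chr5:127781630-128433077), a membrane protein whose gene overlaps others, had 3256 counts in PWK and 15 in B6, a ratio of 212 (128 to 379) of PWK over B6. Gm21451 (1424 in PWK and 6 in B6) has copies, among them Loxl2, an expressed gene with 21.4 CPM in PWK and 22.4 CPM in B6, against means of 5.88 and 0.0226 CPM for Gm21451, so their sum is not read. Gm8909, a predicted gene that overlaps another (chr17:36164443-36168537), had 1742 counts in PWK and 10 in B6. Ucp1 (chr8:83290348-83298456), the uncoupling protein of brown fat, had 1772 counts in PWK and 3 in B6, a ratio of 576.5 (197 to 2798). Those 1772 counts came almost wholly from PWK replicates 2 and 7, at 30.5 and 34.5 CPM, with 2.51 CPM in replicate 1, 0.583 CPM in replicate 9 and 0 in the other 3. In B6, replicates 1 and 2 had 0.0565 and 0.0213 CPM and the other 6 had 0. The fitted difference of Ucp1 was 9.19 ± 1.81 (adjusted p = 3.47e-05), 10.10 without B6 replicate 1, 8.49 without PWK replicate 2 and 8.42 without PWK replicate 7. With limma on the authors' log2 values it was 1.52 (adjusted p = 0.0593). Such fitted values of nearly silent genes depend on the prior count: without 1 library, Gm14680 moved to -9.55 (PWK replicate 2), Gm44386 to -8.82 (PWK replicate 3) and Gm21451 to 8.78 (B6 replicate 8).

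Near-identical gene copies bear on many of the large differences. A copy of at least 95% identity was found for 3167 tested genes, of which 1262 (39.8%) were called, against 4996 of 13515 genes without a copy (37.0%). Among the 360 genes called at 3 or more log2 units, 166 had a copy, and after the counts of the copies were added 44 of these stayed at 3 or more. Only copies that were themselves among the 19462 genes with deposited counts could be added. A gene whose copies all lay outside that set kept its own counts, so its staying tells nothing about its copies. Some partners are expressed genes of their own, and a sum then follows whichever is more abundant. At 1 log2 unit the number of genes with a copy was 496 before and 274 after adding, 230 of them in both sets. Further, 9419 tested genes overlap another gene, and whether the counting used strand is not given in the sources used here. Of the genes named in the text without that remark, Ndufs6, Etfa, Xist, Rn18s-rs5, Mx1, Mx2, mt-Atp6, Oas1a, Pdhb, Cacna1s, Elovl6, Me1, Fabp3, Akt2, Foxo1, Irs1, Hspe1, Gstm1, Nnt, Glo1, Cox7a2l and Hbb-bs have a near-identical copy, and mt-Nd4l, Atp5g2, Myh6, Gapdh, Atp5a1, Cox6a2, Ugp2, Pdk2, Idh2, Gadd45a, Chrne, Casq2, G0s2, Abhd5, Elovl6, Acly, Acacb, Me1, Cidea, Ppargc1a, Ucp2, Foxo1, Irs1, Prkab2, Prkag2, Fbxo31, Hspa1a, Hspe1, Pdia6, Atf3, Gbp10, H2-Eb1, Cd74, Nnt, Glo1, Hc, Cwc22, Col14a1, S100b, Neb, Tagln, Idh3b, Npas2, Zic1, Xist, Ddx3y, Rn18s-rs5, mt-Nd2, Gm10222, Gm13339, Gm13341 and Gm21451 overlap another gene. Whether PWK reads mapped to the GRCm38 build as well as B6 reads was not tested.

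Mitochondrial genes have copies in the nuclear genome. mt-Co2, a cytochrome oxidase subunit, had 27.4, 46.02 and 81.05 CPM in PWK, against 2945, 4166 and 4742 CPM in B6 (log2 difference -6.29 ± 0.36, adjusted p = 8.19e-22). Its copy Gm28661 on chromosome 1 (chr1:24614885-24615565, minus strand) is identical over 681 bases and averaged 8593 CPM in PWK and 6499 CPM in B6. Its copy Gm13341 on chromosome 2 (chr2:22587291-22587962, minus strand), with 16 differing bases in 672, averaged 2.01 CPM in PWK, 0.959 CPM in B6 and 1995 CPM in Cast, where mt-Co2 itself averaged 60.4 CPM. With the copies added the difference was -0.29. mt-Nd4l, a complex I subunit, had 21.2, 30.98 and 38.7 CPM in PWK, against 1022, 1461 and 1894 CPM in B6 (log2 difference -5.59 ± 0.14, adjusted p = 3.75e-39), while its identical copy Gm10222 (chr1:24612407-24612700, minus strand) averaged 1584 CPM in PWK and 597 CPM in B6, and the sum differed by -0.36. mt-Nd2, another complex I subunit that was chosen after its values were seen, averaged 4957 CPM in PWK and 8752 CPM in B6. Its copy Gm13339 (chr2:22590024-22590533, minus strand), with 17 differing bases in 510, averaged 792 CPM in PWK and 0.440 CPM in B6. No other strain averaged above 1.36 CPM of Gm13339. The 120-base stretches below (GRCm38, printed 5′ to 3′ along the gene) are shown because these copies on chromosome 2 had their highest strain mean in Cast for Gm13341 and in PWK for Gm13339, with the 7 differing bases of each pair in capitals: mt-Co2 at chrM:7457-7576 (plus strand) against Gm13341 at chr2:22587411-22587530 (minus strand), and mt-Nd2 at chrM:4575-4694 (plus strand) against Gm13339 at chr2:22590281-22590400 (minus strand).
mt-Co2: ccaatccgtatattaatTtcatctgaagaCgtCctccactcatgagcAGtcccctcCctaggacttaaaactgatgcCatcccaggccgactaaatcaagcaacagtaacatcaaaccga
Gm13341: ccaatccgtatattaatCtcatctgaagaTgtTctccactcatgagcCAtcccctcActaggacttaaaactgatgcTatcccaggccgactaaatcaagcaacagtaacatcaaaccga
mt-Nd2: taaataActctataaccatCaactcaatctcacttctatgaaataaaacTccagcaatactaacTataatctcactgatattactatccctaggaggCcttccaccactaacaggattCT
Gm13339: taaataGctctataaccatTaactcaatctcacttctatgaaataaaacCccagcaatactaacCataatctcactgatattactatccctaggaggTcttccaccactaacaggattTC

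Several nuclear genes also changed when copies were added. Atp5g2, a membrane subunit of ATP synthase, had 87.4, 109 and 116 CPM in PWK, against 4.602, 6.901 and 8.599 CPM in B6, a difference of 3.95 that became 0.09 with its copy (adjusted p = 0.301). Ndufb4, of complex I, differed by 1.41 alone and by 0.12 with its copy (adjusted p = 0.249). Myh6, the myosin of heart atria, averaged 33.3 CPM in PWK and 2.55 CPM in B6, a difference of 3.68. Its near-identical partner is Myh7, the slow myosin, an expressed gene of its own with 989 CPM in PWK and 941 CPM in B6, so a sum of the 2 follows Myh7 and is not read. The alpha-globin genes Hba-a1 and Hba-a2 differed by 7.94 and -1.37 alone, in opposite directions, and by 1.05 when their counts were pooled (adjusted p = 0.00108). Gapdh, the glycolytic enzyme with 82 annotated copies, kept its difference of 2.04 at 2.03 once those with deposited counts were added. Most of its copies had no deposited counts and were not added.

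**Figure D3:**
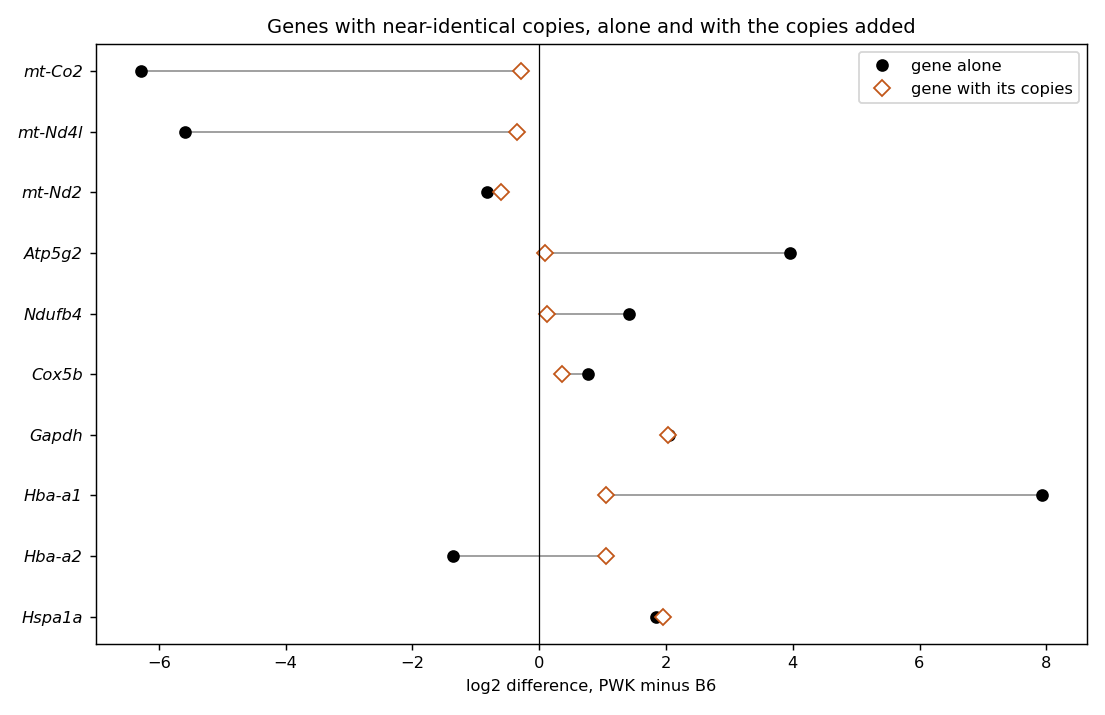
Log2 differences, PWK minus B6, of 10 genes with near-identical copies, for the gene alone (black circles) and after the counts of those copies with deposited counts were added (open diamonds). mt-Co2 lies at -6.29 alone and -0.29 with its copies, Hba-a2 moves from below 0 to 1.05, and Gapdh stays at 2.03.

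Nuclear genes of oxidative phosphorylation were mostly higher in PWK, by small amounts. Of 37 complex I subunit genes, 25 were higher and 1 lower in PWK, with a median difference of 0.23, where 17.7% of all tested genes were higher and 19.8% lower with a median of -0.00. Of 43 genes of complexes II to V, 29 were higher and 2 lower, with a median of 0.27. Without B6 replicate 5 the complex I counts were 19 and 2 and those of complexes II to V 22 and 2. With the counts of copies added they were 24 and 1, and 28 and 2.

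Among single subunits, Ndufa8 of complex I had 128, 146 and 185 CPM in PWK, against 75.8, 104 and 113 CPM in B6 (log2 difference 0.56 ± 0.08, adjusted p = 1.56e-08), with no overlap between the strains. Ndufs6, also of complex I and overlapping another gene, had 73.5, 84.8 and 94.6 CPM in PWK, against 34.2, 58.9 and 67.6 CPM in B6 (log2 difference 0.59 ± 0.08, adjusted p = 2.69e-08), with B6 replicate 5 the lowest library. Cox5b, of cytochrome oxidase, had 202, 217 and 249.9 CPM in PWK, against 72.99, 139.5 and 148 CPM in B6 (log2 difference 0.77 ± 0.08, adjusted p = 1.28e-11), and the difference was 0.36 with its copy added. Atp5a1, the catalytic-core alpha subunit of ATP synthase, and Sdhc, a membrane anchor of succinate dehydrogenase, were picked after their values were seen. Atp5a1 had 1963, 2217 and 2554 CPM in PWK, against 1466, 1588 and 1809 CPM in B6 (log2 difference 0.45 ± 0.07, adjusted p = 3.37e-07), and Sdhc had 219, 247 and 294 CPM in PWK, against 155, 186 and 206 CPM in B6 (log2 difference 0.44 ± 0.07, adjusted p = 1.43e-07). Both separated the strains fully. The exceptions ran the other way: Ndufa7 of complex I had 36.6, 41.5 and 45.4 CPM in PWK, against 38.2, 54.03 and 60.1 CPM in B6 (log2 difference -0.35 ± 0.08, adjusted p = 0.000323), with overlapping ranges, and Cox6a2, the muscle form of a cytochrome oxidase subunit, had 258, 286 and 305 CPM in PWK, against 286, 335 and 387 CPM in B6 (log2 difference -0.24 ± 0.06, adjusted p = 0.00196).

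The 13 protein-coding genes of the mitochondrial genome went the opposite way, with 0 higher and 10 lower in PWK and a median of -0.31, or -0.29 with copies added (10 lower). Thus 76.9% were called, against 37.5% of all tested genes. Without B6 replicate 5, 9 were lower. mt-Atp8, the small ATP synthase subunit, which overlaps mt-Atp6, had 184, 291 and 520.0 CPM in PWK, against 301, 690.5 and 1235 CPM in B6 (log2 difference -1.21 ± 0.32, adjusted p = 0.00161), with overlapping ranges. All genes of the mitochondrial genome together took 8.71% to 11.2% of the counts in PWK libraries and 9.37% to 13.8% in B6 libraries. These shares leave out the counts assigned to nuclear copies, which differed between the strains for the genes given above.

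**Figure D4:**
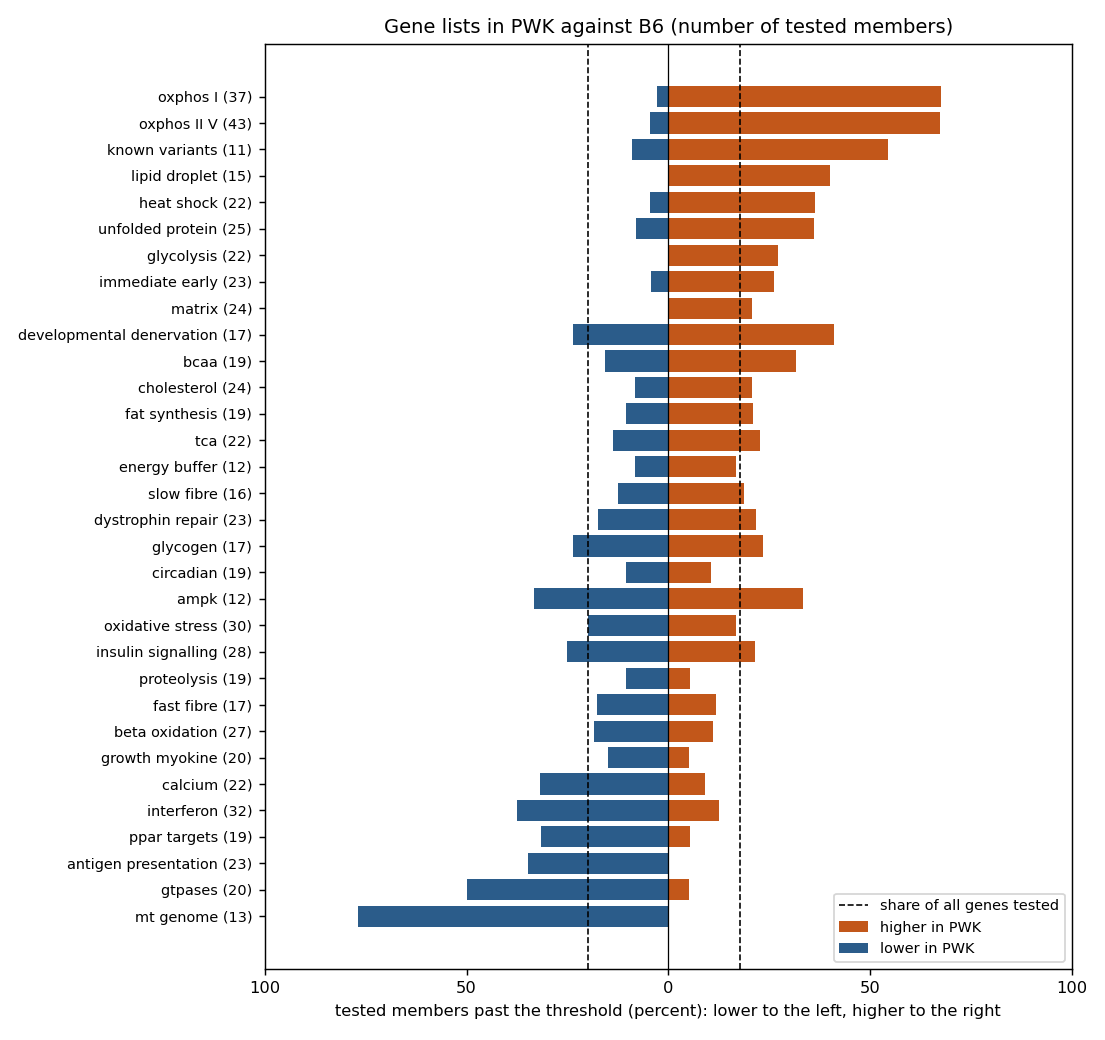
Share of the tested members of 32 gene lists that were lower (blue bars, left) or higher (orange bars, right) in PWK at an adjusted p under 0.05, with the number of tested members beside each name; the broken lines mark the shares over all tested genes, 19.8% lower and 17.7% higher. The 2 lists of nuclear oxidative phosphorylation genes stand at the top and the mitochondrial genome, GTPase and antigen presentation lists at the bottom.

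Of 22 glycolytic enzymes, 6 were higher and 0 lower in PWK (5 and 0 without B6 replicate 5), with a median of 0.19. A share of 27.3% was thus called, against 37.5% of all tested genes (17.7% higher and 19.8% lower). Gapdh had 1682, 1713 and 2166 CPM in PWK, against 368, 451 and 573 CPM in B6 (log2 difference 2.04 ± 0.10, adjusted p = 5.39e-25). Eno1, an enolase, had 88.9, 112 and 135 CPM in PWK, against 61.8, 71.7 and 85.9 CPM in B6 (log2 difference 0.66 ± 0.12, adjusted p = 5.13e-06), and Pgk1, phosphoglycerate kinase, had 691, 822 and 1024 CPM in PWK, against 436, 622 and 769.8 CPM in B6 (log2 difference 0.42 ± 0.09, adjusted p = 7.37e-05). Gapdh and Eno1 did not overlap between the strains, and 4 of 7 PWK libraries exceeded all B6 libraries for Pgk1. All 3 have annotated copies, of which only a part had deposited counts. With that part added the differences were 2.03 for Gapdh, 0.66 for Eno1 and 0.42 for Pgk1.

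Glycogen genes moved both ways, with 4 of 17 higher and 4 lower (47.1% called, against 37.5% of all tested genes). Gbe1, the branching enzyme, had 138, 170.0 and 188 CPM in PWK, against 46.4, 55.97 and 64.4 CPM in B6 (log2 difference 1.58 ± 0.15, adjusted p = 2.76e-13), and Stbd1, a glycogen-binding protein, had 46.4, 56.4 and 78.8 CPM in PWK, against 13.9, 28.7 and 45.96 CPM in B6 (log2 difference 0.99 ± 0.27, adjusted p = 0.00208). Neither overlapped between the strains. Stbd1 had 38.4 to 45.96 CPM in B6 replicates 1 to 4 and 13.9 to 19.01 CPM in replicates 5 to 8. Ppp1r3c, which targets protein phosphatase 1 to glycogen, had 663, 879 and 1312 CPM in PWK, against 405, 514 and 761 CPM in B6 (log2 difference 0.69 ± 0.19, adjusted p = 0.00313). On the other side stood Gaa, the lysosomal glucosidase that digests glycogen, with 124, 128 and 134 CPM in PWK, against 208, 238 and 253 CPM in B6 (log2 difference -0.86 ± 0.07, adjusted p = 1.02e-16), again without overlap. Ugp2, which makes UDP-glucose, had 433, 506 and 625 CPM in PWK, against 544, 680.3 and 782 CPM in B6 (log2 difference -0.38 ± 0.11, adjusted p = 0.00349).

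Of 22 genes of pyruvate dehydrogenase and the citric acid cycle, 5 were higher and 3 lower (36.4% called, against 37.5% of all tested genes). Pdhx and Pdhb, both of the pyruvate dehydrogenase complex, differed by 0.53 ± 0.08 and 0.30 ± 0.07 (adjusted p = 4.48e-07 and 0.000561) with every PWK library above every B6 library. Pdk2, a kinase that switches the complex off, had 236, 269 and 308 CPM in PWK, against 356, 418 and 451 CPM in B6 (log2 difference -0.61 ± 0.07, adjusted p = 6.13e-11). Idh2, the mitochondrial isocitrate dehydrogenase that uses NADP, had 125, 166 and 195 CPM in PWK, against 215, 261 and 352 CPM in B6 (log2 difference -0.70 ± 0.11, adjusted p = 4.22e-07). Pdk2 and Idh2 did not overlap between the strains.

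Fibre-type genes showed no common direction. Of 16 slow-fibre genes 3 were higher and 2 lower, and of 17 fast-fibre genes 2 and 3, with medians of 0.03 and 0.04. The shares called, 31.25% and 29.4%, were below the 37.5% of all tested genes. Myoz2, a Z-disc protein of slow fibres, had 169.8, 206 and 363 CPM in PWK, against 84.8, 107 and 165 CPM in B6 (log2 difference 1.03 ± 0.15, adjusted p = 1.49e-07), with no overlap. Tnnt3, fast troponin T, had 3210.0, 3653 and 4188 CPM in PWK, against 1281, 2052 and 2443 CPM in B6 (log2 difference 0.84 ± 0.09, adjusted p = 4.02e-11), with no overlap, and Myh1, the myosin of fast IIx fibres, had 5171, 7861 and 9379 CPM in PWK, against 3584, 4769 and 5190.0 CPM in B6 (log2 difference 0.76 ± 0.12, adjusted p = 3.65e-07). Actn3, the alpha-actinin of fast fibres, was lower, with 3790.0, 5079 and 5865 CPM in PWK, against 5350.0, 7133 and 9293 CPM in B6 (log2 difference -0.49 ± 0.12, adjusted p = 0.000535), and for Myh1 and Actn3 the strains overlapped. Tnnt3, Myh1 and Myoz2 overlap genes on the opposite or the same strand.

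Genes of the neuromuscular junction and of denervated or developing muscle moved both ways, with 7 of 17 higher and 4 lower and a median of 0.37. Of this list 64.7% was called, against 37.5% of all tested genes. Myog, the transcription factor myogenin, had 6.77, 15.97 and 23.9 CPM in PWK, against 1.74, 3.58 and 9.203 CPM in B6 (log2 difference 1.85 ± 0.39, adjusted p = 0.000113). Gadd45a, a stress gene that rises in denervated muscle, had 23.8, 25.4 and 35.7 CPM in PWK, against 5.82, 12.1 and 17.9 CPM in B6 (log2 difference 1.20 ± 0.25, adjusted p = 9.43e-05), and Chrne, the adult acetylcholine receptor subunit, had 10.4, 13.04 and 19.97 CPM in PWK, against 5.08, 6.697 and 8.15 CPM in B6 (log2 difference 1.06 ± 0.14, adjusted p = 5.54e-09). Gadd45a and Chrne did not overlap between the strains, while 5 of 7 PWK libraries exceeded all B6 libraries for Myog. Musk, the receptor kinase of the junction, was lower, with 8.805, 12.5 and 21.96 CPM in PWK, against 15.6, 28.02 and 54.01 CPM in B6 (log2 difference -1.12 ± 0.34, adjusted p = 0.00737) and overlapping ranges. B6 replicates 1 to 4 had 15.6 to 22.6 CPM of Musk and replicates 5 to 8 had 33.5 to 54.01 CPM. For Gadd45a these ranges were 15.45 to 17.9 and 5.82 to 8.68 CPM, and for Myog 4.86 to 9.203 and 1.74 to 2.29 CPM. Other genes described in the text, among them Kcng4, Gdap1, Fgfbp1, Xbp1 and Hsd17b7, also did not overlap between B6 replicates 1 to 4 and 5 to 8. What separates these B6 replicates was not tested. With replicate number as a block in the edgeR fit, the Musk difference was -0.82 (adjusted p = 0.122). The count of lower members was 2 without PWK replicate 3 or without B6 replicate 2, 3 or 4.

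Of 22 genes of calcium release, 7 were lower and 2 higher in PWK, with a median of -0.07, where 19.8% of all tested genes were lower and 17.7% higher (8 and 2 without B6 replicate 5). Cacna1s, the voltage sensor of excitation-contraction coupling, had 927, 996 and 1111 CPM in PWK, against 1305, 1587 and 1783 CPM in B6 (log2 difference -0.65 ± 0.08, adjusted p = 2.06e-10), and Trdn, which anchors calsequestrin to the release channel, had 515, 581 and 640.4 CPM in PWK, against 676, 859 and 1035 CPM in B6 (log2 difference -0.60 ± 0.09, adjusted p = 1.65e-07). Both separated the strains fully, and both overlap other genes. Fkbp1a, a protein that stabilises the release channel, was higher, with 86.4, 98.7 and 125 CPM in PWK, against 69.6, 74.6 and 83.5 CPM in B6 (log2 difference 0.41 ± 0.05, adjusted p = 5.32e-09), again without overlap. Casq2, the slow-fibre calsequestrin, differed by -0.73 ± 0.25 (adjusted p = 0.0183), a call lost without B6 replicate 3 (adjusted p = 0.0558).

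In the dystrophin complex and membrane repair list, 5 of 23 genes were higher and 4 lower (39.1% called, against 37.5% of all tested genes). Dysf, the dysferlin of membrane repair, had 102, 114 and 154 CPM in PWK, against 61.02, 73.1 and 84.7 CPM in B6 (log2 difference 0.69 ± 0.10, adjusted p = 2.42e-08). Among the 6 other strains its mean ran from 13.8 CPM in AJ, a strain known to carry a dysferlin mutation, to 143 CPM. Sgcb, beta-sarcoglycan, had 132, 153 and 172 CPM in PWK, against 85.8, 94.9 and 111 CPM in B6 (log2 difference 0.67 ± 0.07, adjusted p = 7.21e-12). Capn3, the muscle calpain, had 83.9, 90.5 and 108 CPM in PWK, against 120.4, 139 and 145 CPM in B6 (log2 difference -0.53 ± 0.09, adjusted p = 4.40e-06). None of these 3 overlapped between the strains, and all 3 overlap another gene in the annotation.

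Of 15 lipid droplet and lipolysis genes, 6 were higher in PWK and 0 lower, with a median of 0.27. The share called was 40.00%, against 37.5% of all tested genes, of which 17.7% were higher and 19.8% lower. G0s2, an inhibitor of adipose triglyceride lipase, had 10.9, 21.3 and 29.6 CPM in PWK, against 3.28, 8.41 and 12.8 CPM in B6 (log2 difference 1.33 ± 0.34, adjusted p = 0.00121), and Abhd5, the activator of the same lipase, had 41.7, 46.3 and 52.3 CPM in PWK, against 27.7, 32.5 and 35.01 CPM in B6 (log2 difference 0.52 ± 0.07, adjusted p = 9.15e-09), with no overlap for Abhd5. Pnpla2, the lipase itself, differed by 0.40 ± 0.15 (adjusted p = 0.0363), a call lost without PWK replicates 2, 3 or 9 or B6 replicates 1, 2, 4 or 6 (adjusted p = 0.0529 to 0.108).

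Of 19 genes of fat synthesis, 4 were higher and 2 lower (31.6% called, against 37.5% of all tested genes). Fasn, fatty acid synthase, had 57.8, 133 and 858 CPM in PWK, against 36.9, 81.1 and 156 CPM in B6 (log2 difference 1.60 ± 0.56, adjusted p = 0.018), Elovl6, an elongase, had 7.98, 22.6 and 86.6 CPM in PWK, against 2.06, 6.27 and 21.01 CPM in B6 (log2 difference 1.88 ± 0.63, adjusted p = 0.0141), and Acly, which makes cytosolic acetyl-CoA, had 25.7, 62.1 and 157 CPM in PWK, against 17.7, 29.3 and 36.4 CPM in B6 (log2 difference 1.25 ± 0.37, adjusted p = 0.00581). PWK replicates 2 and 7 were the highest of all 15 libraries for these 3 genes. Without PWK replicate 2 the differences were 1.01, adjusted p = 0.151 for Fasn, 1.34, adjusted p = 0.0926 for Elovl6 and 0.89, adjusted p = 0.0551 for Acly, and 1 member of the list was still higher. By limma on the variance-stabilised values the adjusted p of Fasn was 0.0999. Acacb, the acetyl-CoA carboxylase of muscle mitochondria, was lower, with 273, 328 and 347 CPM in PWK, against 388, 477 and 549 CPM in B6 (log2 difference -0.58 ± 0.09, adjusted p = 5.58e-07). Me1, malic enzyme, had 146, 187 and 207 CPM in PWK, against 213, 273 and 311 CPM in B6 (log2 difference -0.56 ± 0.12, adjusted p = 9.96e-05), and neither gene overlapped between the strains.

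The same 2 PWK libraries, replicates 2 and 7, carried Ucp1 and the highest levels of Cidea, a lipid droplet protein of brown fat picked after its values were seen, with 0.679, 1.901 and 14.4 CPM in PWK, against 0.622, 0.879 and 1.79 CPM in B6 (log2 difference 2.22 ± 0.57, adjusted p = 0.0013, and 1.59 without PWK replicate 2; adjusted p = 0.0868 by limma). Of 12 brown fat markers, 6 were higher and 2 lower in PWK, and 3 were higher without B6 replicate 5. Called markers made up 66.7%, against 37.5% of all tested genes, of which 17.7% were higher and 19.8% lower. The summed level of the list was 487, 599 and 653 CPM in PWK, against 628, 772 and 893 CPM in B6. A large part of that sum was Fabp3, the fatty acid carrier of muscle, with means of 282 CPM in PWK and 491 CPM in B6. The lower members were Fabp3 and Ppargc1a, both described below, so the sum does not measure brown fat alone. Zic1, another brown fat marker, was at or under 1.51 CPM in every PWK library and 2.76 CPM in every B6 library. The white adipocyte sum was 1508, 2548 and 3232 CPM in PWK, against 1559, 2498 and 3952 CPM in B6, and 1 of its 12 markers was higher and 1 lower. The part of fat tissue in the fat synthesis genes was not tested.

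Of 27 oxidation genes 5 were lower and 3 higher, and of 19 PPAR and PGC-1 genes 6 were lower and 1 higher, with medians of 0.05 and -0.19. The median of the oxidation genes thus had the opposite sign to their count. Of the 2 lists 29.6% and 36.8% were called, against 37.5% of all tested genes. Hadha, of the mitochondrial trifunctional protein, had 262, 298 and 316 CPM in PWK, against 342, 391 and 431 CPM in B6 (log2 difference -0.40 ± 0.06, adjusted p = 5.43e-07), and Decr1, which handles unsaturated fatty acids, had 62.9, 73.5 and 83.8 CPM in PWK, against 89.02, 114 and 129 CPM in B6 (log2 difference -0.60 ± 0.08, adjusted p = 8.97e-09). Fabp3, the fatty acid carrier of muscle, had 189.8, 290.2 and 365 CPM in PWK, against 369, 510.4 and 591 CPM in B6 (log2 difference -0.80 ± 0.15, adjusted p = 1.50e-05). The strains did not overlap for these 3 genes, and each overlaps another gene. Slc22a5, the carnitine importer, was higher, with 14.97, 17.1 and 18.9 CPM in PWK, against 9.35, 10.4 and 11.5 CPM in B6 (log2 difference 0.70 ± 0.09, adjusted p = 7.83e-10), again without overlap.

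Ppargc1a, the coactivator PGC-1 alpha that drives mitochondrial genes, had 29.4, 35.9 and 40.5 CPM in PWK, against 31.2, 63.3 and 129 CPM in B6 (log2 difference -0.97 ± 0.29, adjusted p = 0.00628). The PWK and B6 ranges overlapped. Acot2, a mitochondrial thioesterase with a near-identical copy, had 8.33, 9.83 and 12.3 CPM in PWK, against 13.8, 22.8 and 27.8 CPM in B6 (log2 difference -1.12 ± 0.23, adjusted p = 5.51e-05, and -1.16 with the copy). Ucp2, an uncoupling protein homologue, had 5.72, 7.36 and 13.9 CPM in PWK, against 9.55, 12.9 and 31.1 CPM in B6 (log2 difference -0.89 ± 0.25, adjusted p = 0.00334). Esrrb, an orphan nuclear receptor, was the 1 higher member, with 10.8, 12.98 and 21.3 CPM in PWK, against 7.71, 8.94 and 13.1 CPM in B6 (log2 difference 0.57 ± 0.14, adjusted p = 0.0013).

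In insulin signalling, 6 of 28 genes were higher and 7 lower (46.4% called, against 37.5% of all tested genes). The 2 related Rab regulators of glucose transport moved in opposite directions. Tbc1d1 had 122, 141 and 192 CPM in PWK, against 78.3, 83.1 and 92.05 CPM in B6 (log2 difference 0.84 ± 0.23, adjusted p = 0.00275), while Tbc1d4 had 18.6, 26.9 and 29.8 CPM in PWK, against 50.7, 61.8 and 86.9 CPM in B6 (log2 difference -1.33 ± 0.17, adjusted p = 4.21e-09). Each gene separated the strains fully, and each overlaps another gene. Akt2, the insulin-responsive AKT kinase, had 135, 146 and 152 CPM in PWK, against 199.7, 238 and 249 CPM in B6 (log2 difference -0.68 ± 0.06, adjusted p = 8.38e-14), and Grb14, an adaptor that dampens the insulin receptor, had 6.22, 8.68 and 12.1 CPM in PWK, against 12.9, 15.5 and 19.3 CPM in B6 (log2 difference -0.86 ± 0.21, adjusted p = 0.000619). These 2 were also without overlap. Foxo1, a transcription factor that AKT keeps out of the nucleus, had 23.8, 58.3 and 86.6 CPM in PWK, against 21.1, 30.3 and 36.00 CPM in B6 (log2 difference 0.94 ± 0.31, adjusted p = 0.0122), with 6 of 7 PWK libraries above all of B6. Irs1, an insulin receptor substrate, differed by 0.81 ± 0.28 (adjusted p = 0.0182), a call lost without PWK replicate 1 (adjusted p = 0.0577).

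Of 12 genes of AMP-activated kinase and its regulators, 8 were called (66.7%, against 37.5% of all tested genes), 4 higher and 4 lower. Several subunits were lower. Prkag3, the gamma subunit of fast fibres, had 29.3, 40.2 and 79.8 CPM in PWK, against 74.6, 129.9 and 168 CPM in B6 (log2 difference -1.37 ± 0.24, adjusted p = 4.31e-06), and Prkab2, the muscle-enriched beta subunit, had 201, 254 and 342 CPM in PWK, against 363, 439 and 472 CPM in B6 (log2 difference -0.72 ± 0.10, adjusted p = 1.21e-08). Prkaa2, the catalytic subunit of muscle, had 279, 320.3 and 385 CPM in PWK, against 307, 383 and 462 CPM in B6 (log2 difference -0.29 ± 0.08, adjusted p = 0.00447). Prkab2 did not overlap between the strains and the other 2 did. Prkag2, another gamma subunit, and Camkk2, an upstream kinase, were higher, by 0.45 ± 0.10 and 0.47 ± 0.14 (adjusted p = 0.000355 and 0.00557).

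Of 20 growth factor and myokine genes, 3 were lower and 1 higher. The share of this list called was below the 37.5% of all tested genes, and its share called lower was below their 19.8%. Mstn, myostatin, the inhibitor of muscle growth, had 32.4, 37.8 and 46.5 CPM in PWK, against 55.3, 69.99 and 92.7 CPM in B6 (log2 difference -0.85 ± 0.16, adjusted p = 1.20e-05). Gdf11, its close relative, had 3.78, 5.09 and 8.199 CPM in PWK, against 10.6, 14.7 and 17.7 CPM in B6 (log2 difference -1.42 ± 0.21, adjusted p = 1.61e-07), and Fndc5, the precursor of irisin, had 26.9, 38.6 and 45.1 CPM in PWK, against 46.8, 51.9 and 54.6 CPM in B6 (log2 difference -0.44 ± 0.13, adjusted p = 0.00397). All 3 separated the strains fully. In the list of ubiquitin ligases and autophagy genes, 1 of 19 was higher and 2 lower (15.8% called, against the same 37.5%). Fbxo31, a ubiquitin ligase subunit, had 41.4, 57.4 and 76.3 CPM in PWK, against 102, 128 and 176 CPM in B6 (log2 difference -1.20 ± 0.19, adjusted p = 5.45e-07), and Map1lc3a, of the autophagosome, had 80.3, 102 and 119 CPM in PWK, against 50.1, 58.8 and 65.8 CPM in B6 (log2 difference 0.75 ± 0.11, adjusted p = 7.87e-08).

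Of 22 heat shock genes, 8 were higher and 1 lower, with a median of 0.27 (7 and 2 without B6 replicate 5). Over all tested genes 17.7% were higher and 19.8% lower, and the list had 40.9% called in either direction, against 37.5%. Hspa1b, an inducible HSP70 gene, had 10.8, 56.5 and 114 CPM in PWK, against 7.18, 10.6 and 19.7 CPM in B6 (log2 difference 2.10 ± 0.61, adjusted p = 0.00488), and its twin Hspa1a had 17.96, 62.8 and 124 CPM in PWK, against 9.87, 13.9 and 30.5 CPM in B6 (log2 difference 1.85 ± 0.55, adjusted p = 0.00575). Reads may be split between them, and their pooled difference was 1.96. Dnajb1, an HSP40 partner of HSP70, had 10.4, 22.9 and 48.9 CPM in PWK, against 5.94, 7.74 and 9.09 CPM in B6 (log2 difference 1.72 ± 0.41, adjusted p = 0.000614). The strains did not overlap for Dnajb1, whereas the lowest PWK libraries of the HSP70 pair fell within the B6 range. Hsph1, an HSP110 chaperone, had 84.8, 102 and 113 CPM in PWK, against 61.3, 76.2 and 84.1 CPM in B6 (log2 difference 0.44 ± 0.14, adjusted p = 0.0107), and Hspe1, the HSP10 of mitochondria, had 37.5, 41.8 and 45.2 CPM in PWK, against 21.5, 34.2 and 35.8 CPM in B6 (log2 difference 0.35 ± 0.08, adjusted p = 0.00017). Neither overlapped between the strains.

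Heat shock factor binds inverted repeats of GAA, and the promoters of 2 of these members hold such a repeat, searched on both strands as GAA, any 2 bases, TTC, any 2 bases, GAA. All 8 members called higher were in the promoter table, which covers 250 bases before to 50 bases after the start, and Hsph1 and Hspe1 held it. Among the 16 tested members in the table it was held by 3, and Hspd1, the third of them, was not called. The repeat occurred in 70 of 11646 tested genes in the table (0.601%) and in 198 of all 32851 promoters (0.603%). No match was found in the windows of Hspa1a, Hspa1b and Dnajb1. The 2 windows are shown from RefSeq on GRCm38.p6 with the matches in capitals, Hsph1 (1 of 2 start sites) at chr5:149636266-149636565 on the minus strand and Hspe1, with 2 overlapping matches, at chr1:55087898-55088197 on the plus strand.
Hsph1: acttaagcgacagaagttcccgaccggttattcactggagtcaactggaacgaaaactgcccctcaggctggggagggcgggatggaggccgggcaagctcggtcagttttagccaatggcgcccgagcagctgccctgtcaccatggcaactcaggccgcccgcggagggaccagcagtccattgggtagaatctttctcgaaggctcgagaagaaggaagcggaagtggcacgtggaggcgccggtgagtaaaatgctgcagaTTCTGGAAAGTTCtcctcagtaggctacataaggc
Hspe1: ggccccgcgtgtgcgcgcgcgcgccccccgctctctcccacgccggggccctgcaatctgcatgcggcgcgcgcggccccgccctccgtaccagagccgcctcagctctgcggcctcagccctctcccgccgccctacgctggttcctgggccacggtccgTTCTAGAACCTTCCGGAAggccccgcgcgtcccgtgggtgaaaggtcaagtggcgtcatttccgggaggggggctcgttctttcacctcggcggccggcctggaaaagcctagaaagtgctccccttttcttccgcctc

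Chaperones of the endoplasmic reticulum belong to the unfolded protein list, in which 9 of 25 genes were higher and 2 lower (8 and 1 without B6 replicate 5), with a median of 0.21. Of the list 44.00% was called, against 37.5% of all tested genes. Xbp1, a transcription factor of the response, had 60.3, 78.8 and 94.5 CPM in PWK, against 37.9, 50.4 and 66.02 CPM in B6 (log2 difference 0.57 ± 0.15, adjusted p = 0.00201). B6 replicates 1 to 4 had 55.2 to 66.02 CPM of Xbp1 and replicates 5 to 8 had 37.9 to 45.6 CPM. In PWK, 6 of 7 libraries exceeded all B6 libraries. Pdia6, a disulfide isomerase, had 46.5, 52.3 and 55.1 CPM in PWK, against 30.6, 37.2 and 41.5 CPM in B6 (log2 difference 0.50 ± 0.11, adjusted p = 0.000106). Hspa5, the main chaperone of that compartment, was chosen after its values were seen and had 229.7, 255 and 259 CPM in PWK, against 153, 189.9 and 209 CPM in B6 (log2 difference 0.40 ± 0.09, adjusted p = 0.000475). Pdia6 and Hspa5 did not overlap between the strains. Canx, the lectin chaperone calnexin, was lower, with 78.9, 90.05 and 92.9 CPM in PWK, against 99.6, 107 and 114 CPM in B6 (log2 difference -0.27 ± 0.06, adjusted p = 0.000334) and no overlap.

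Of 23 immediate early genes, 6 were higher and 1 lower, with a median of 0.41, and 10 were higher without PWK replicate 6. The share called was 30.4%, below the 37.5% of all tested genes. Nr4a3, an orphan nuclear receptor induced by exercise, had 16.6, 50.6 and 94.2 CPM in PWK, against 6.55, 21.6 and 29.9 CPM in B6 (log2 difference 1.40 ± 0.41, adjusted p = 0.00535), and Atf3, a stress-induced factor, had 18.3, 25.4 and 72.2 CPM in PWK, against 6.498, 10.5 and 30.3 CPM in B6 (log2 difference 1.39 ± 0.39, adjusted p = 0.00322). Nr4a2, of the same receptor family, had 2.22, 6.59 and 36.7 CPM in PWK, against 0.989, 2.02 and 7.85 CPM in B6 (log2 difference 2.13 ± 0.47, adjusted p = 0.000212), with its maximum in PWK replicate 3 and a difference of 1.54 without it. The strains overlapped for all 3.

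Antiviral and antigen presentation genes were counted in 3 lists, against 19.8% lower and 17.7% higher among all tested genes. Of 32 interferon-stimulated genes, 12 were lower and 4 higher in PWK, with a median of -0.40. Of 20 guanylate-binding proteins and immunity-related GTPases, 10 were lower and 1 higher, with a median of -0.80. Of 23 antigen presentation genes, 8 were lower and 0 higher, with a median of -0.52. The counts of lower members were the same without B6 replicate 5, at 12, 10 and 8.

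Ifi27, an interferon-induced protein, had 3.31, 4.21 and 5.51 CPM in PWK, against 9.52, 14.1 and 17.4 CPM in B6 (log2 difference -1.76 ± 0.14, adjusted p = 1.48e-15), and its neighbour Ifi27l2a, nearly silent in PWK, had 0, 0.0529 and 0.0823 CPM in PWK, against 3.84, 7.36 and 14.2 CPM in B6. The other strains averaged 11.5 to 31.96 CPM of Ifi27 and 7.66 to 27.01 CPM of Ifi27l2a, so that PWK lay below all of them for both. Ifit3, an antiviral protein of the IFIT family, had 0.123, 0.528 and 0.696 CPM in PWK, against 2.25, 3.61 and 5.198 CPM in B6 (log2 difference -2.87 ± 0.30, adjusted p = 5.81e-12), and Ifit3b, its near-identical neighbour, had 0.272, 0.674 and 1.005 CPM in PWK, against 2.97, 3.76 and 5.69 CPM in B6 (log2 difference -2.81 ± 0.36, adjusted p = 3.65e-09). Their pooled difference was -2.84. Rsad2, the antiviral enzyme viperin, had 0.521, 1.08 and 1.605 CPM in PWK, against 3.91, 4.72 and 7.78 CPM in B6 (log2 difference -2.19 ± 0.40, adjusted p = 8.39e-06). No PWK library reached the B6 range for these 5 genes. The higher members went against the list: Xaf1, a proapoptotic interferon target, had 4.48, 7.12 and 8.99 CPM in PWK, against 2.17, 3.11 and 4.29 CPM in B6 (log2 difference 1.19 ± 0.18, adjusted p = 1.34e-07), and Mx1, Mx2 and Ifi202b are described with the known variants.

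The interferon-stimulated response element was approximated by TTTC, any 2 bases and TTTC again, searched on both strands from 250 bases before to 50 bases after the start. Of the 12 interferon members called lower, 6 were in the RefSeq promoter table and 4 of them held the motif (Ifit3, Ifit3b, Oas1a and Rsad2), while of all tested members 13 of 21 in the table held it. The motif occurred in 434 of 11646 tested genes in the table (3.73%) and in 1131 of all 32851 promoters (3.44%). A match describes the letters of the window and not binding. The windows of the 3 members named above are shown (RefSeq, GRCm38.p6, motif in capitals), Ifit3 at chr19:34583279-34583578 on the plus strand with 2 matches, Ifit3b at chr19:34607707-34608006 on the plus strand with 2 and Rsad2 at chr12:26456403-26456702 on the minus strand with 1.
Ifit3: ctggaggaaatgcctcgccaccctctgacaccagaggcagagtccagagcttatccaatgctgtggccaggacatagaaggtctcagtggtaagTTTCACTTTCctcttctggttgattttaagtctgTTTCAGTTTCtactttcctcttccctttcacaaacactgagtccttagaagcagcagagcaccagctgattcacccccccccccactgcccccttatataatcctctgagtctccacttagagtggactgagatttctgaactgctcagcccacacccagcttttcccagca
Ifit3b: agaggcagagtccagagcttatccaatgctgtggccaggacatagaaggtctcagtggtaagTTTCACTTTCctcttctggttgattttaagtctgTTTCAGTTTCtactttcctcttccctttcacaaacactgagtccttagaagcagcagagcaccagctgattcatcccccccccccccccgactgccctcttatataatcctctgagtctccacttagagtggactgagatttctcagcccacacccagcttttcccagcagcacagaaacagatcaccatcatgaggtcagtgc
Rsad2: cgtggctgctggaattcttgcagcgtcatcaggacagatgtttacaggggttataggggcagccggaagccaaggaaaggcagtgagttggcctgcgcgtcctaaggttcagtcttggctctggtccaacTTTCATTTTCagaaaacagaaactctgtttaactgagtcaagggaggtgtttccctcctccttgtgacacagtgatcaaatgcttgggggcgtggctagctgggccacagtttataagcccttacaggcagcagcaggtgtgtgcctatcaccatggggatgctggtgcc

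Among the GTPases, which attack membranes around intracellular microbes, Gbp10 had 0.147, 0.288 and 1.06 CPM in PWK, against 6.47, 12.7 and 17.7 CPM in B6 (log2 difference -4.69 ± 0.51, adjusted p = 2.77e-11, and -3.77 with its copies). The second annotated Gbp6 (ENSMUSG00000104713) had 1.33, 1.85 and 3.93 CPM in PWK, against 17.5, 22.7 and 32.7 CPM in B6 (log2 difference -3.42 ± 0.25, adjusted p = 2.16e-17). The Gbp genes form a cluster of related copies on chromosome 5 whose reads may be shared. The Gbp6 given with the nearly silent genes (ENSMUSG00000079362) overlaps Gbp10 and the second Gbp6 on the same strand. These lower members of the list are therefore not separate loci. Irgm1, a regulator of the other GTPases that lies outside that cluster, was chosen after its values were seen and had 6.29, 7.33 and 9.19 CPM in PWK, against 10.8, 14.6 and 18.8 CPM in B6 (log2 difference -1.01 ± 0.11, adjusted p = 3.49e-11), with no overlap between the strains.

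Classical class I genes were lower too. H2-K1, chosen after its values were seen like H2-D1, had 18.4, 23.3 and 38.2 CPM in PWK, against 48.9, 59.1 and 144 CPM in B6 (log2 difference -1.53 ± 0.28, adjusted p = 7.21e-06), and H2-D1 had 30.6, 33.6 and 55.4 CPM in PWK, against 55.5, 70.7 and 136 CPM in B6 (log2 difference -1.07 ± 0.20, adjusted p = 1.23e-05). No PWK library reached the B6 range for either. The class I-like genes H2-Q6 and H2-Q7 had 0.242, 0.535 and 1.11 CPM in PWK, against 3.08, 5.13 and 20.9 CPM in B6 for H2-Q6 (log2 difference -3.58 ± 0.52, adjusted p = 6.28e-08), and 0.235, 0.605 and 1.402 CPM in PWK, against 4.67, 9.18 and 42.8 CPM in B6 for H2-Q7 (log2 difference -4.38 ± 0.55, adjusted p = 2.21e-09), and reads may be split between these near-identical genes. In class II the genes differed among themselves. H2-Eb1, a class II beta chain, had 0.4599, 1.06 and 3.11 CPM in PWK, against 10.7, 13.6 and 64.02 CPM in B6 (log2 difference -4.00 ± 0.55, adjusted p = 2.10e-08), without overlap. By contrast, H2-Aa, a class II alpha chain, had 6.23, 15.1 and 188 CPM in PWK, against 14.7, 17.4 and 91.2 CPM in B6 (log2 difference 0.56 ± 0.58, adjusted p = 0.493), and Cd74, the class II invariant chain, had 11.7, 20.9 and 255 CPM in PWK, against 31.4, 37.5 and 175 CPM in B6 (log2 difference 0.01 ± 0.58, adjusted p = 0.991), both picked after their values were seen and both overlapping widely. MHC genes differ in sequence between strains, and how PWK alleles were counted against GRCm38 was not tested.

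**Figure D5:**
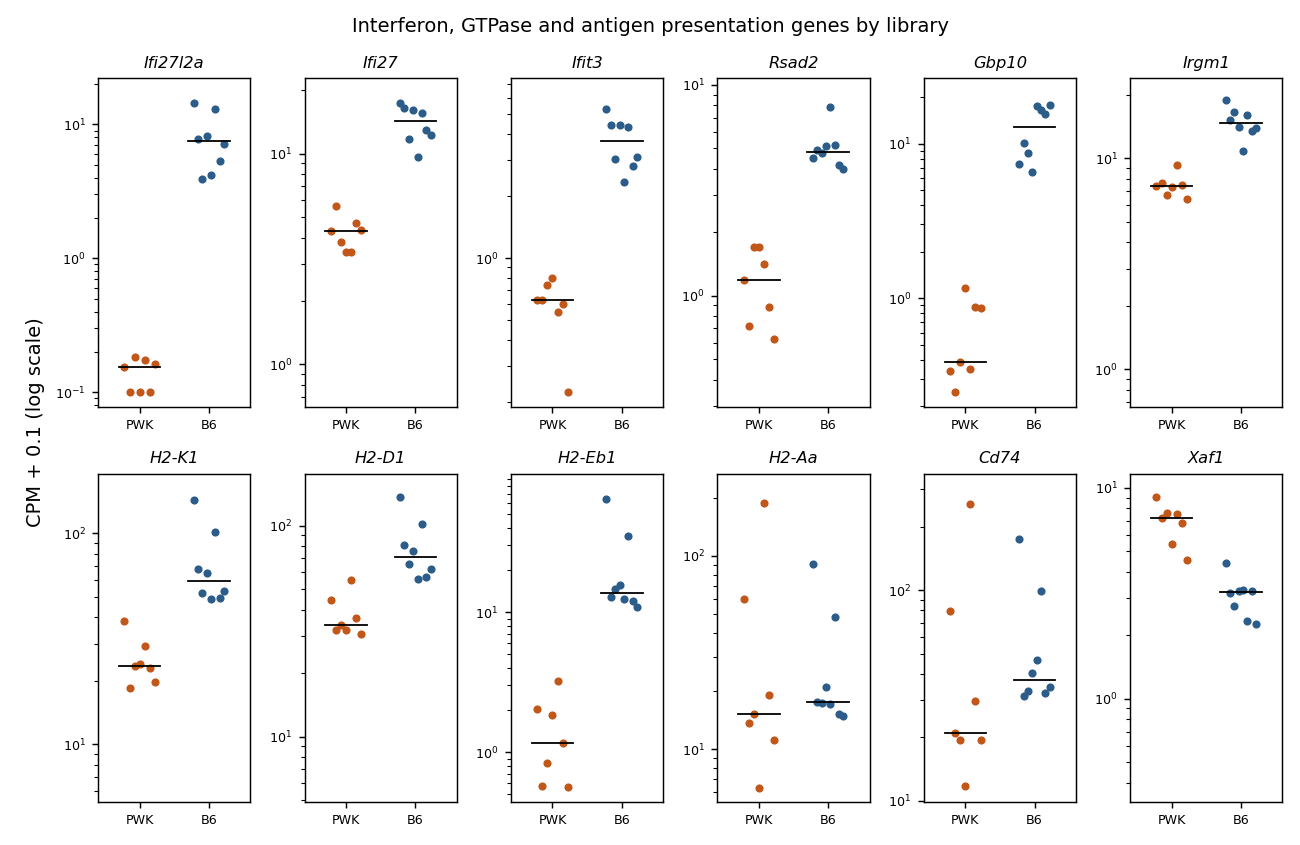
CPM plus 0.1 on a log axis for 12 interferon, GTPase and antigen presentation genes, with each point 1 library (7 PWK, 8 B6) and each bar the median of a strain. PWK lies below B6 without overlap for the first 9 genes, overlaps B6 for H2-Aa and Cd74, and lies above B6 for Xaf1.

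Immune cell markers were measured beside these genes. The summed level of 13 macrophage marker genes was 88.6, 199.7 and 414 CPM in PWK, against 127, 133 and 264 CPM in B6, and 8 were higher and 0 lower in PWK (7 and 1 without B6 replicate 5). Called markers made up 61.5%, against 37.5% of all tested genes, of which 17.7% were higher and 19.8% lower. Retnla, a gene of alternatively activated macrophages, had 7.08, 31.2 and 90.5 CPM in PWK, against 9.203, 12.1 and 20.4 CPM in B6 (log2 difference 1.37 ± 0.28, adjusted p = 6.86e-05), and C1qa, of complement, had 8.56, 17.5 and 38.7 CPM in PWK, against 7.47, 9.57 and 17.9 CPM in B6 (log2 difference 0.88 ± 0.21, adjusted p = 0.000574). PWK replicate 6 had the highest macrophage sum, and 4 markers were higher without it. The sum of 11 lymphocyte markers was 4.08, 6.297 and 123 CPM in PWK, against 4.11, 5.63 and 176 CPM in B6, none of them called, with the high values in PWK replicate 1 and B6 replicates 1 and 6. The part of these cells in the interferon, GTPase and antigen presentation genes was not tested.

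Of the antioxidant and glutathione genes, 5 of 30 were higher and 6 lower (36.7% called, against 37.5% of all tested genes). Without PWK replicate 4 or without B6 replicate 5, 3 were higher. Gstm2, a mu-class glutathione transferase, had 3.87, 8.75 and 11.6 CPM in PWK, against 18.5, 40.3 and 53.97 CPM in B6 (log2 difference -2.28 ± 0.28, adjusted p = 9.48e-10), and Gstm1 had 49.95, 57.1 and 67.2 CPM in PWK, against 96.05, 106 and 119 CPM in B6 (log2 difference -0.86 ± 0.10, adjusted p = 5.76e-10), both without overlap, while their neighbour Gstm7 was higher as given above. Gstm2 had 50.8 to 53.97 CPM in B6 replicates 1 to 4 and 18.5 to 29.9 CPM in replicates 5 to 8. Gpx1, a glutathione peroxidase, had 62.2, 69.8 and 85.4 CPM in PWK, against 31.1, 40.01 and 68.9 CPM in B6 (log2 difference 0.72 ± 0.20, adjusted p = 0.00307). Sod2, mitochondrial superoxide dismutase, differed by 0.41 ± 0.08 (adjusted p = 7.02e-05). The search paired it with Rps6ka2, another expressed gene, which averaged 122 CPM in PWK and 175 CPM in B6, and reads may be split between them.

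Of 11 genes with variants known from C57BL/6J or between strains, all described whatever their result, 6 were higher and 1 lower. That is 63.6% called, against 37.5% of all tested genes. Nnt, the transhydrogenase that makes mitochondrial NADPH and carries a deletion in C57BL/6J, had 144, 182 and 228 CPM in PWK, against 40.05, 48.9 and 71.1 CPM in B6 (log2 difference 1.85 ± 0.12, adjusted p = 1.05e-19). The other strains averaged 108 to 188 CPM, so B6 lay below all of them. Ifi202b, an interferon-inducible gene, had 3.39, 4.39 and 4.92 CPM in PWK, against 0, 0.0354 and 0.307 CPM in B6 (log2 difference 6.10 ± 0.45, adjusted p = 2.81e-17), and Gabra2, a GABA receptor subunit with a known C57BL/6J variant, had 0.272, 0.334 and 0.674 CPM in PWK, against 0, 0.0106 and 0.108 CPM in B6 (log2 difference 3.45 ± 0.63, adjusted p = 1.08e-05). Mx2 had 0.981, 2.903 and 3.38 CPM in PWK, against 0.325, 0.489 and 1.13 CPM in B6 (log2 difference 2.22 ± 0.38, adjusted p = 2.51e-06), and Mx1 had 0.756, 1.26 and 4.21 CPM in PWK, against 0.213, 0.269 and 2.03 CPM in B6 (log2 difference 1.48 ± 0.44, adjusted p = 0.00569), 2.19 without B6 replicate 1 and 1.04, adjusted p = 0.056 without PWK replicate 1. These 2 antiviral GTPases share sequence, and their pooled difference was 1.89. Glo1, glyoxalase 1, had 130.4, 140.4 and 191 CPM in PWK, against 83.6, 88.2 and 98.7 CPM in B6 (log2 difference 0.74 ± 0.07, adjusted p = 1.39e-13), with no overlap between the strains.

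Of the remaining 5 genes, 1 was called. Oas1b, of the 2-5A antiviral pathway, had 0, 0.309 and 0.608 CPM in PWK, against 0.253, 0.581 and 1.07 CPM in B6 (log2 difference -1.16 ± 0.40, adjusted p = 0.0165), with overlapping ranges, and adjusted p = 0.0868 when only the 15 libraries were fitted. Cox7a2l, a supercomplex factor, differed by 0.12 ± 0.06 (adjusted p = 0.105), and Hc, complement component 5, by 0.66 ± 0.96 (adjusted p = 0.645). Cwc22, a splicing factor with copies that vary in number among strains, differed by -0.07 ± 0.16 (adjusted p = 0.787), and H2-Ea-ps, a class II pseudogene, by 2.10 ± 1.17 (adjusted p = 0.162). The last 4 did not pass the threshold.

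Matrix and smooth muscle genes were measured next. Of 24 matrix genes, 5 were higher and 0 lower, with a median of 0.35 (3 higher without PWK replicate 6 or 7). The share of the matrix list called, 20.8%, was below the 37.5% of all tested genes, and its share called higher was near the 17.7% of all genes. Postn, periostin, had 19.1, 36.1 and 96.3 CPM in PWK, against 10.3, 20.5 and 28.6 CPM in B6 (log2 difference 1.44 ± 0.32, adjusted p = 0.000182), and Col14a1, a fibril-associated collagen, had 20.03, 30.1 and 40.9 CPM in PWK, against 10.7, 15.1 and 20.8 CPM in B6 (log2 difference 0.89 ± 0.19, adjusted p = 0.000152). Of 10 smooth muscle markers 5 were higher, and their sum was 559, 635 and 699 CPM in PWK, against 467, 529.5 and 604 CPM in B6. Acta2, smooth muscle actin, had 64.9, 71.2 and 102 CPM in PWK, against 43.5, 50.8 and 68.7 CPM in B6 (log2 difference 0.45 ± 0.13, adjusted p = 0.00553). Among endothelial markers, Vwf, von Willebrand factor, was lower, with 28.2, 31.1 and 42.2 CPM in PWK, against 44.1, 53.9 and 59.1 CPM in B6 (log2 difference -0.67 ± 0.12, adjusted p = 1.47e-05) and no overlap, while Cldn5, a tight junction protein, was higher, with 8.56, 11.9 and 13.1 CPM in PWK, against 5.03, 8.85 and 9.91 CPM in B6 (log2 difference 0.44 ± 0.15, adjusted p = 0.0144). S100b, a calcium-binding protein of Schwann cells, had 4.39, 9.34 and 16.2 CPM in PWK, against 0.744, 1.596 and 3.45 CPM in B6 (log2 difference 2.38 ± 0.36, adjusted p = 1.54e-07), and was the 1 of 10 nerve markers that was called. Red cell markers summed to 271, 344 and 692 CPM in PWK, against 136, 196 and 296 CPM in B6, with Hbb-bs, a beta-globin, at 114, 144 and 296 CPM in PWK, against 56.5, 80.7 and 134 CPM in B6 (log2 difference 0.98 ± 0.27, adjusted p = 0.00248). None of the hepatocyte, keratinocyte, lymphocyte or neutrophil markers was called, although the hepatocyte sums reached 2256 CPM in PWK and 2372 CPM in B6.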

How the data were processed

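Polyadenylated RNA of pulverised frozen muscle was sequenced, per the labels' protocols. The authors deposited estimated (expected) counts of 19462 genes in 61 libraries, 80.4% of them whole numbers, and a table of log2 variance-stabilised values. The submitters' processing notes name GRCm38 and DESeq2, without a version; aligner, counting tool and strand use: not given in the sources used here. The deposited expected counts were rounded, filtered with filterByExpr, scaled by TMM and fitted with edgeR 4.0.16 (R 4.3.3), with strain as the 1 factor over all 61 libraries (53 residual degrees of freedom), and PWK was contrasted with B6. The design had assumed raw counts. SE was obtained as the absolute log2 difference over the square root of F. Alternatives used DESeq2 1.42.0, limma 3.58.1 on the deposited log2 values, other filters, covariates and left-out libraries. Copies were found by BLAST 2.17.0 of GENCODE transcripts, with an identity of 95% or more along 200 or more bases that cover 50% or more of whichever transcript is shorter. Named genes were the 12 highest and 12 lowest called genes of at least 5 CPM without copy or overlap, up to 3 called genes per direction of each list, known variants and nearly silent genes. Most genes whose call ended when 1 library was left out are counted but not named, a choice made after their values were seen, and a few further genes are not reported here. The comparison and the gene lists, some taken from an earlier analysis, were chosen with earlier results of these data known. In data simulated for this comparison on 16682 genes, 10 of 67 genes changed by 0.5 log2 units were called, 61 of 67 changed by 1 and 65 of 66 changed by 2, and 12 of 16482 unchanged genes were called. The simulation gave every gene the same dispersion and changed far fewer genes than the 6258 called in the real data. Its shares therefore check the fit and do not carry over to the real comparison.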

Additional observations from a re-analysis of the deposited data

Results flagged for a closer look

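In 464 sets of libraries of 1 strain, the gap between the highest or lowest library and its neighbour was compared with the range of the set (Dixon's test at 95%), and 36 sets had a library that stood apart. CPM values were compared on a log scale after 0.5 CPM was added, so the rule does not apply to the plain CPM printed here. Chance alone flags about 1 set in 20. The values are given with the range of the other libraries of the same strain in brackets. PWK replicate 1 lay above the other PWK libraries with 29.1 CPM of Orai2 (6.74 to 10.9) and 4.21 CPM of Mx1 (0.756 to 1.48). PWK replicate 1 lay below the other PWK libraries with 141 CPM of Etfa (166 to 182). PWK replicate 2 lay above the other PWK libraries with 40.6 CPM of Mccc2 (28.8 to 33.3). PWK replicate 2 lay below the other PWK libraries with 87.1 CPM for the hepatocyte marker sum (575 to 2256). PWK replicate 3 lay below the other PWK libraries with 46.5 CPM of Pdia6 (51.4 to 55.1). PWK replicate 4 lay above the other PWK libraries with 35.7 CPM of Frzb (20.4 to 25.6) and 0.666 CPM of H2-Ea-ps (0 to 0.167). PWK replicate 6 lay above the other PWK libraries with 91.9 CPM of Myh11 (60.2 to 72.1), 102 CPM of Acta2 (64.9 to 75.8) and 55.6 CPM of Tagln (28.1 to 35.1). PWK replicate 7 lay below the other PWK libraries with 87.4 CPM of Atp5g2 (105 to 116). PWK replicate 9 lay above the other PWK libraries with 18.6 CPM of Ern1 (14.1 to 15.6). PWK replicate 9 lay below the other PWK libraries with 0.981 CPM of Mx2 (2.06 to 3.38) and 0.123 CPM of Ifit3 (0.445 to 0.696). B6 replicate 1 lay above the other B6 libraries with 0.0565 CPM of Ucp1 (0 to 0.0213), 48.1 CPM of Ighg2c (0.173 to 2.90) and 47.7 CPM of Ighg2b (0 to 1.94). B6 replicate 1 lay below the other B6 libraries with 2945 CPM of mt-Co2 (3868 to 4742), 27.7 CPM of Abhd5 (31.5 to 35.0) and 46.8 CPM of Fndc5 (50.8 to 54.6). B6 replicate 3 lay above the other B6 libraries with 71.1 CPM of Nnt (40.0 to 50.6). B6 replicate 5 lay above the other B6 libraries with 18310.0 CPM of Neb (8911 to 12490.0), 7.78 CPM of Rsad2 (3.91 to 5.07), 235200.0 CPM for the skeletal muscle marker sum (142900.0 to 180200.0) and 46.3% of Rn18s-rs5 (4.13 to 9.11). B6 replicate 5 lay below the other B6 libraries with 0.819 CPM of Gstm7 (2.03 to 3.01), 1281 CPM of Tnnt3 (1930.0 to 2443), 179 CPM of Idh3b (221 to 264) and 34.2 CPM of Ndufs6 (53.6 to 67.6). B6 replicate 5 lay below the other B6 libraries with 73.0 CPM of Cox5b (118 to 148), 3.28 CPM of G0s2 (7.22 to 12.8), 69.6 CPM of Cox8b (106 to 125) and 21.5 CPM of Hspe1 (31.6 to 35.8). B6 replicate 6 lay above the other B6 libraries with 7.64 CPM of Pmvk (5.54 to 6.35). B6 replicate 7 lay below the other B6 libraries with 0.0724 CPM of Npas2 (2.70 to 3.69).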

How the results depend on the processing

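The count of called genes was 6258 and stayed within 1.5 times of that under every alternative run, from 5244 with a stricter count filter to 6544 with marker sums as covariates, and leaving out 1 library gave 5857 to 6155. The count of genes called at 1 log2 unit or more, 1918 in the main result, was 965 with the stricter filter, which tests fewer genes, and 438 when limma was run on the variance-stabilised values, whose scale shrinks differences of low genes. With copies added, Hba-a2 reversed to 1.05 (adjusted p = 0.00108), since its counts were then pooled with those of Hba-a1. Library numbers shared by the strains did not pair the libraries: the deviations of same-numbered libraries correlated at 0.655 to -0.33 over 6 numbers, and only number 1 correlated best with its own. With the replicate block, on 12 libraries, 5268 of 14999 genes were called, against 5572 in the same libraries without it. Of 219 named genes 210 were called, 146 of them under every alternative that tested them and 164 under every left-out library.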

Other observations

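Branched-chain amino acid breakdown moved in parts. Of 19 genes, 6 were higher and 3 lower in PWK (47.4% called, against 37.5% of all tested genes). Pccb, a subunit of propionyl-CoA carboxylase, had 24.9, 28.98 and 30.2 CPM in PWK, against 60.9, 67.95 and 72.4 CPM in B6 (log2 difference -1.26 ± 0.08, adjusted p = 2.19e-20), and Aldh6a1, a dehydrogenase of valine breakdown that overlaps another gene, had 72.3, 86.1 and 96.2 CPM in PWK, against 132, 152 and 165 CPM in B6 (log2 difference -0.81 ± 0.08, adjusted p = 1.77e-12). Bckdha, a subunit of the branched-chain ketoacid dehydrogenase, was higher, with 113, 120.5 and 129 CPM in PWK, against 79.7, 87.9 and 98.2 CPM in B6 (log2 difference 0.46 ± 0.08, adjusted p = 5.87e-06), and it overlaps another gene. The strains did not overlap for these 3 genes.

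Of 24 cholesterol genes, 5 were higher and 2 lower in PWK (29.2% called, against 37.5% of all tested genes). Without PWK replicate 2 or B6 replicate 7, 3 were higher. Pmvk, phosphomevalonate kinase, had 12.9, 14.2 and 16.8 CPM in PWK, against 5.54, 6.09 and 7.64 CPM in B6 (log2 difference 1.23 ± 0.20, adjusted p = 6.08e-07), while Hsd17b7, a later enzyme of the pathway, had 4.12, 4.31 and 5.37 CPM in PWK, against 6.604, 11.2 and 12.6 CPM in B6 (log2 difference -1.17 ± 0.18, adjusted p = 1.77e-07), both without overlap. Of 19 circadian genes, 2 were higher and 2 lower (21.1% called, against the same 37.5%). Clock, a core transcription factor of the clock that overlaps other genes, had 54.8, 75.5 and 78.8 CPM in PWK, against 39.04, 53.97 and 73.8 CPM in B6 (log2 difference 0.34 ± 0.10, adjusted p = 0.00645), with overlapping ranges. Of 10 fibroblast markers 2 were higher, and 0 without B6 replicate 5. With all libraries, the share of these markers called was below the 37.5% of all tested genes. Their share called higher was near the 17.7% of all tested genes. Over the autosomes, the share of tested genes called ran from 34.0% on chromosome 15 to 41.3% on chromosome 12. It was 35.4% on chromosome X, where 186 of 525 tested genes were called, 2 of 9 on chromosome Y (22.2%) and 12 of 15 in the mitochondrial genome (80.0%).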
